A study of Oryctolagus cuniculus with 6 samples.

Results

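MicroRNAs best known from the nervous system were followed in hypertrophic scars of the rabbit ear. Every row of the deposited table was taken whose name, as in ocu-miR-218-5p and ocu-miR-7a-5p (ocu for Oryctolagus cuniculus, the rabbit, left out below), was miR-9, miR-128, miR-129, miR-138, miR-153, miR-212, miR-218 or miR-7, with both arms of each hairpin. These 17 of 467 miRNA rows cover 8 of the 10 families sought, and for miR-124 and miR-132 no row was found. The scars came from full-thickness wounds on the ventral side of the ears of female rabbits of the New Zealand White breed and were taken at day 21. One group of 3 libraries came from wounds given ADSC-Exos, which are exosomes (small secreted vesicles) from stem cells of fat tissue, with 100 µg per 2 ml. The other 3 libraries came from wounds given saline. Treatment was applied on the first 3 days according to the series' design text, and for 21 days according to the sample labels. All animals were female, of 1 breed and with full-thickness wounds, and the sources used here give no age. The design text speaks of 3 rabbits per group but ties no library to a rabbit, so the p-values measure the spread between these samples, which may be partly technical.

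miRNAs of these families are best known from the brain. miR-9 and miR-128 are abundant in neural progenitors and neurons, miR-218 in motor neurons of the mouse, and miR-7 in neurons and endocrine cells, where it represses the alpha-synuclein transcript and is bound by the circular RNA Cdr1as. Several of them are not exclusive to neurons: miR-9 is induced in activated human monocytes and neutrophils, and miR-218 is made from introns of the SLIT genes, which encode axon guidance ligands that are also expressed outside the nervous system. Each hairpin gives a 5p and a 3p arm, of which usually the more abundant is loaded into Argonaute and represses targets through its seed. By RefSeq's annotation of assembly mOryCun1.1, 11 of the 13 hairpin genes of these families lie within another gene, 6 of them in protein-coding genes. The miR-218 hairpins lie within SLIT2 and SLIT3, miR-7a within HNRNPK, miR-128a within R3HDM1, miR-128b within ARPP21 and miR-153 within PTPRN2.

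The table gives CPM, in which the reads of each library are scaled to 1 common total. The steps between low values put the libraries at 2260645 to 5102405 miRNA reads in ADSC-Exos and 2873899 to 3911924 in saline, so that 1 read was worth 0.196 to 0.442 CPM. A count of 0 allows up to 3 reads, or 0.588 to 1.33 CPM, counting error only. The scar label was set against miRNAs typical of fibroblasts, miR-199a and miR-214, which summed to 113480 to 164725 CPM in ADSC-Exos and 117972 to 143972 CPM in saline. Libraries did not all stand near their own group. ADSC-Exos 1 was lowest in miRNAs of cartilage (miR-140 and miR-455, each with both arms), with 1461.1 CPM in sum against 6045.6 and 7601.9 CPM in the other ADSC-Exos libraries and 2109.9 to 4651.9 CPM in saline. Results below are therefore given with and without ADSC-Exos 1 where it decides a value. The same is done for ADSC-Exos 3, in which all 6 tested neuronal miRNAs were lowest, so that choice rests on their own values.

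Together the 17 rows took 0.346%, 0.230% and 0.144% of the miRNA reads in ADSC-Exos 1, 2 and 3, against 0.254%, 0.246% and 0.312% in saline 1, 2 and 3. The ADSC-Exos libraries thus held both the highest and the lowest share, with the saline libraries in between. Only 6 rows, of 4 families, had a mean of at least 10 CPM, the level set for testing, and they made up 98.7% to 99.3% of that share. The lowest of them was miR-7a-3p at a mean of 31.3 CPM, and the highest row left out was miR-9-3p at 9.32 CPM.

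**Figure D1:**
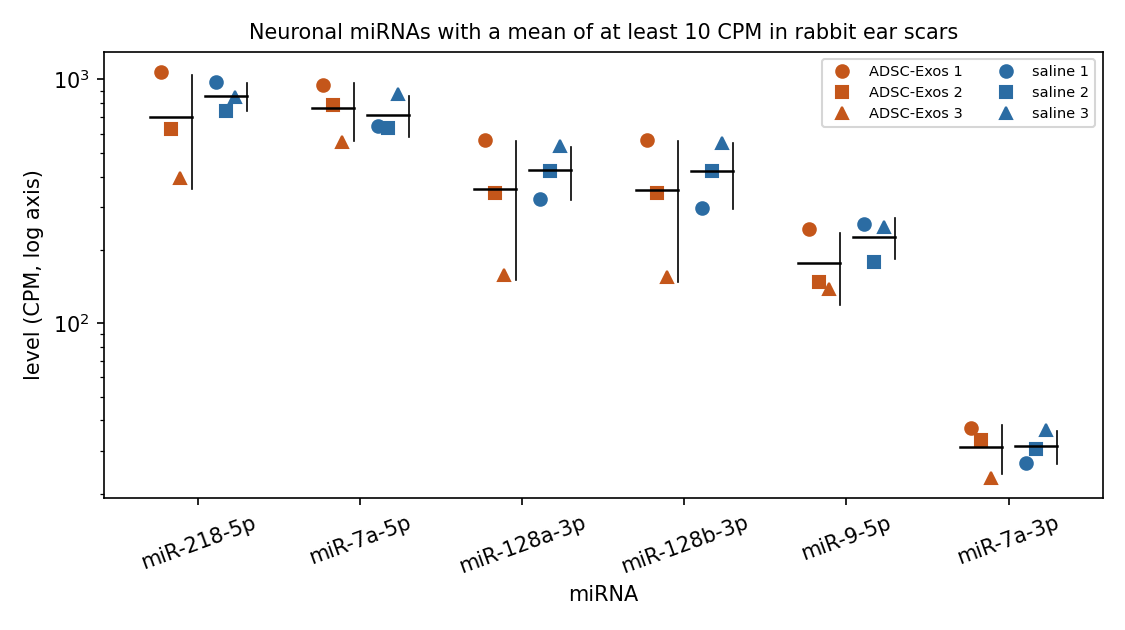
Levels of the 6 neuronal miRNAs over the level of 10 CPM, in CPM on a log axis, with 1 point per library, ADSC-Exos left of saline. Horizontal bars are group means and vertical bars 1 SD over 3 libraries; for each miRNA the ADSC-Exos points reach below those of saline, and for all but miR-9-5p also above them.

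The most abundant pair was miR-218-5p and miR-7a-5p, with means over all libraries of 778 and 739 CPM and places 54 and 55 among the 467 miRNAs. They were followed by miR-128a-3p and miR-128b-3p at 390 and 388 CPM, by miR-9-5p at 202 CPM and by miR-7a-3p at 31.3 CPM. Mature miRNAs are nearly equal in length, so CPM was used without length scaling, but adaptor ligation favours some ends over others and levels of different miRNAs carry that bias. Neighbours in this order were compared within libraries by an exact two-sided sign-flip test, which over 6 libraries cannot give a p under 0.0313. miR-218-5p exceeded miR-7a-5p in 3 of 6 libraries, with a mean ratio of 1.02 (exact p = 0.906), and their order was not resolved. miR-7a-5p exceeded miR-128a-3p in 6 of 6 libraries with a mean ratio of 2.01. miR-128b-3p exceeded miR-9-5p, and miR-9-5p exceeded miR-7a-3p, in 6 of 6 libraries too, with mean ratios of 1.82 and 6.34. These 3 steps each had an exact p of 0.0313 and an adjusted p of 0.0521 over the 5 comparisons, which does not pass 0.05. The order tested was itself taken from the means of these libraries, and no smaller p was possible for these 3 steps.

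The exosome comparison asks whether these miRNAs differ between scars given ADSC-Exos and scars given saline. None of the 6 tested members passed the adjusted threshold of 0.05 by limma, and all 6 had an adjusted p of 0.996. Over all 224 miRNAs tested, 0 were called (0%), and 8 (3.57%) had an unadjusted p under 0.05, none of them a neuronal miRNA. Fitted by limma-voom to the recovered reads, the table also gave 0 calls and 8 at the unadjusted threshold. Without ADSC-Exos 1, limma called 4 of 223 miRNAs (1.79%) and 28 had an unadjusted p under 0.05, with miR-218-5p the single neuronal miRNA among the 28 and none among the 4. Without saline 3 it called 1 of 223 (0.448%), which was not a neuronal miRNA either. The 2 groups overlapped for each of the 6 members, as they did for all but 11 (4.91%) of the 224 tested miRNAs. The ADSC-Exos mean of log2(CPM + 1) was lower for 5 of 6 members and higher for 1, where 60.7% of all tested miRNAs were lower. These 6 members are of 4 families and are not independent. With miR-128a-3p and miR-128b-3p summed, 4 of 5 members and 60.5% of all tested miRNAs were lower. Under quantile scaling 4 of 6 members and 49.1% of all tested miRNAs were lower, and under median-of-ratios scaling 4 of 6 members and 54.9%. The median log2 fold change of the members was -0.39, beside -0.08 over all tested miRNAs, and under quantile scaling it was -0.24, beside 0.0033. The 95% intervals of the members reached 0.718 to 1.08 log2 units to either side, so changes within that width could not be resolved with these libraries. In bulk tissue, fewer cells of a type and less of the miRNA per cell cannot be told apart.

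miR-218-5p, which lowers the SLIT receptor ROBO1, stood at 1075.4, 628.9 and 395.7 CPM in ADSC-Exos 1, 2 and 3, against 976.1, 746.0 and 845.1 CPM in saline 1, 2 and 3. The highest and the lowest of the 6 values were both ADSC-Exos libraries, and the saline values lay close together between them. Treated scars averaged 700.0 ± 345 CPM and saline scars 856 ± 115 CPM (SD, n = 3 each). This made a log2 fold change of -0.40 ± 0.39 (SE) whose 95% interval ran from -1.27 to 0.47. limma gave it an adjusted p of 0.996, and exact permutation over the libraries, two-sided and with 0.1 as its smallest p, gave 0.5. Without ADSC-Exos 1 the log2 fold change was -0.77 (unadjusted p = 0.0370, adjusted p = 0.317 in limma), and without ADSC-Exos 3 it was -0.05.

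miR-7a-5p was the only tested member with a higher mean in ADSC-Exos. It stood at 951.5, 784.9 and 551.9 CPM in ADSC-Exos 1, 2 and 3, against 641.9, 630.9 and 873.7 CPM in saline 1, 2 and 3. Again ADSC-Exos 1 was the highest and ADSC-Exos 3 the lowest library. Treated scars averaged 763 ± 201 CPM and saline scars 716 ± 137 CPM (SD, n = 3 each), and limma put the log2 fold change at 0.07 ± 0.32 (SE, adjusted p = 0.996; exact permutation p = 0.9). Its sign was not stable, with -0.10 without ADSC-Exos 1 and -0.0090 without saline 2. The other arm of the hairpin, miR-7a-3p, had 37.2, 33.2 and 23.3 CPM in the treated libraries, against 26.8, 30.6 and 36.6 CPM in those of saline. Its means were nearly equal, at 31.2 ± 7.16 CPM for treated and 31.3 ± 4.94 CPM for saline scars (SD, n = 3 each). On the log2 scale its fold change of -0.02 ± 0.35 (SE) turned positive under median-of-ratios and quantile scaling.

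miR-128, which restrains neuronal excitability in mice, is represented by 2 rows. miR-128a-3p stood at 566.2, 341.4 and 158.4 CPM in ADSC-Exos 1, 2 and 3, against 322.5, 422.8 and 531.2 CPM in saline 1, 2 and 3. The ADSC-Exos values spread 3.57-fold around the saline range, and treated scars averaged 355 ± 204 CPM, saline scars 426 ± 104 CPM (SD, n = 3 each). In limma the log2 fold change came to -0.41 ± 0.46 (SE, adjusted p = 0.996), and exact permutation gave p = 0.7. Without ADSC-Exos 3 it was 0.08, and without ADSC-Exos 1 it was -0.84.

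miR-128b-3p gave almost the same numbers, 563.1, 341.2 and 154.4 CPM in the treated libraries and 296.0, 421.0 and 549.6 CPM in those of saline, and a log2 fold change of -0.40 ± 0.48 (SE). In reads of the same libraries, miR-128a-3p had 1280, 1265 and 808 in ADSC-Exos and 1047, 1215 and 2078 in saline, while miR-128b-3p had 1273, 1264 and 788 in ADSC-Exos and 961, 1210 and 2150 in saline. Over the 6 libraries together, the 2 rows differed by no more than the sampling noise of 2 equal counts (chi-square 5.19, p = 0.52). Most of this sum came from saline 1 (3.68) and saline 3 (1.23), and the rows lay closer in the other libraries. In human, the 3p arms of both miR-128 hairpins have the same sequence, and the sources used here do not say how reads common to such copies were counted. The separate levels of the 2 rows are therefore uncertain, and they are not independent members. The chi-square test above takes the 2 rows as independent counts, so it cannot decide whether the rows are equal. Summed, they gave 708 ± 409 CPM in treated and 848 ± 231 CPM in saline scars (SD, n = 3 each), a sum that would be inflated if each read was counted in both rows. With the sum in place of the rows, the median of the then 5 tested members was -0.39. The 5p arms were unlike each other. miR-128a-5p was read in all 6 libraries, with 99 reads in all, and miR-128b-5p was read in saline 3 alone, with 2 reads.

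miR-9-5p, a miRNA of neural progenitors that represses the nuclear receptor TLX, stood at 243.7, 147.6 and 138.8 CPM in ADSC-Exos 1, 2 and 3, against 255.0, 177.8 and 248.2 CPM in saline 1, 2 and 3. The 2 lowest values were ADSC-Exos 2 and 3, but ADSC-Exos 1 lay among the saline values. Treated scars averaged 177 ± 58.2 CPM and saline scars 227.0 ± 42.7 CPM (SD, n = 3 each). In limma its log2 fold change, -0.39 ± 0.34 (SE), had adjusted p = 0.996, and exact permutation gave p = 0.2. This value was negative with any 1 library left out, from -0.64 without ADSC-Exos 1 to -0.24 without ADSC-Exos 3. The other arm, miR-9-3p, was under the level filter at 8.8, 9.4 and 8.4 CPM in ADSC-Exos and 9.2, 7.3 and 12.8 CPM in saline, and the groups overlapped.

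**Figure D2:**
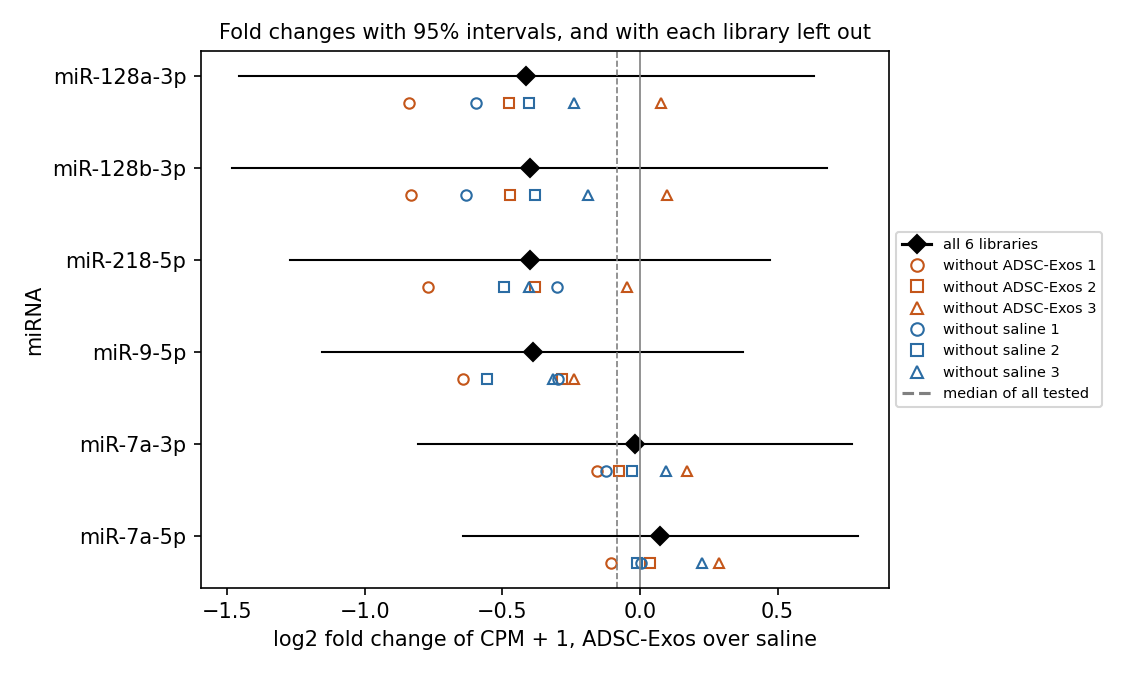
Log2 fold changes of CPM + 1, ADSC-Exos over saline, of the 6 tested neuronal miRNAs (black diamonds, with 95% intervals from limma), and the same with each library left out (open symbols). All 6 intervals cross 0, and both miR-128 rows and miR-7a-3p lie above 0 without ADSC-Exos 3.

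The remaining 11 rows had a mean under 10 CPM, at most 12.8 CPM in any library, and were not tested. Only 4 of them were above 3 reads in all 6 libraries: miR-9-3p, miR-129-5p, miR-128a-5p and miR-138-5p. miR-129-5p, a brain miRNA that in rat neurons represses a potassium channel transcript, had 4.0, 6.2 and 2.7 CPM in ADSC-Exos 1, 2 and 3, against 2.5, 8.0 and 10.5 CPM in saline 1, 2 and 3. Both its lowest and its highest library were saline ones. miR-138-5p, which limits dendritic spine size in rat neurons, had 1.8, 2.7 and 2.5 CPM in ADSC-Exos, against 4.9, 3.1 and 2.0 CPM in saline, with overlapping groups and 4 to 16 reads per library. miR-128a-5p ranged from 2.7 to 8.8 CPM in ADSC-Exos and from 3.3 to 6.6 CPM in saline.

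The other 7 rows were at 0 in at least 1 library. miR-153-3p, which like miR-7 represses alpha-synuclein, had 0, 1 and 0 reads in ADSC-Exos 1, 2 and 3 and 4, 1 and 3 reads in saline 1, 2 and 3. Those of saline 2 and ADSC-Exos 2 were 1 read each, so the groups met at that level. miR-212-5p, an arm of a hairpin that CREB induces in neurons, had 0, 2 and 0 reads in ADSC-Exos and 2, 1 and 0 reads in saline. miR-218-2-3p had 2, 0 and 2 reads in ADSC-Exos and 1, 1 and 4 reads in saline. miR-138-3p, miR-138-2-3p, miR-128b-5p and miR-129-2-3p had 4, 3, 2 and 1 reads over all 6 libraries. For 5 of the 11 rows no library exceeded 3 reads, the upper limit behind a 0. When all 467 miRNAs entered the fit, 0 of 17 members and 0 of 467 miRNAs were called in limma, with 1 and 16 at an unadjusted p under 0.05. That member was miR-153-3p, with a log2 fold change of -0.66 ± 0.26 (SE, unadjusted p = 0.0309, adjusted p = 0.995 in limma) that rests on 9 reads.

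**Figure D3:**
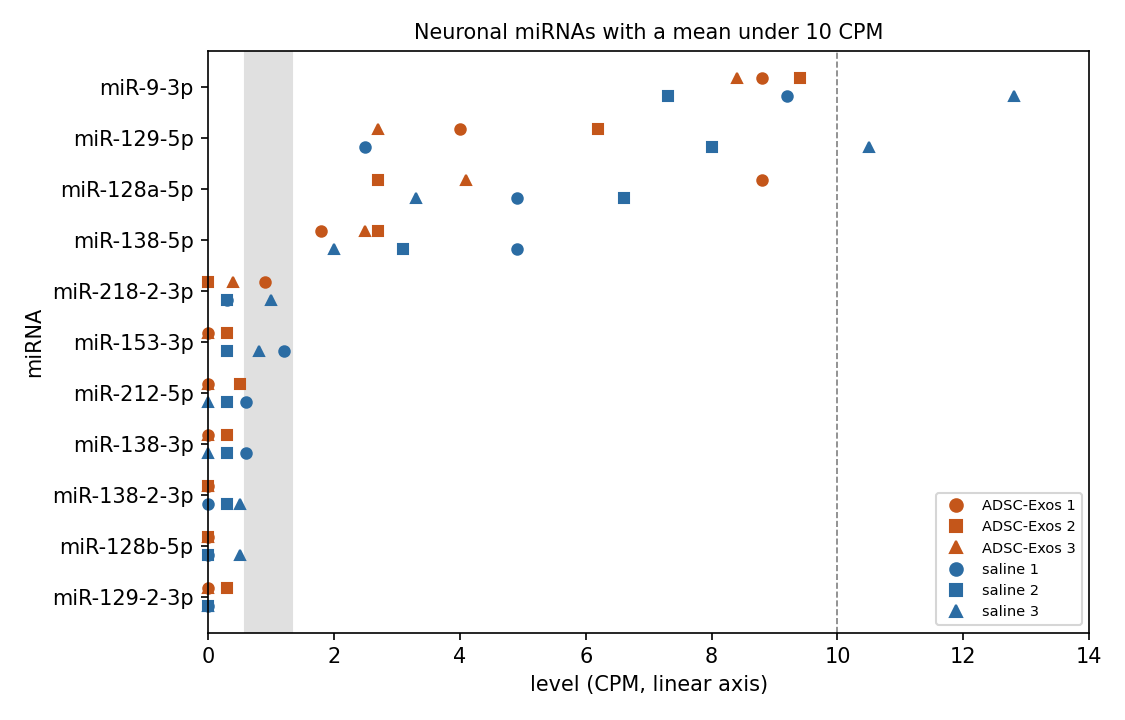
Levels of the 11 neuronal miRNAs with a mean under 10 CPM, in CPM on a linear axis, with 1 point per library and ADSC-Exos above saline in each row. The grey band spans the level of 3 reads over the 6 libraries, the dashed line is 10 CPM, and only miR-9-3p, miR-129-5p, miR-128a-5p and miR-138-5p lie above the band in all libraries.

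The tested members had much of their profile over the libraries in common. All 6 were lowest in ADSC-Exos 3, as were 35.3% of all tested miRNAs, and 5 of 6 were highest in ADSC-Exos 1, as were 26.8% of all tested miRNAs. The 6 rows are of 4 families and are not 6 independent profiles. miR-128a-3p and miR-128b-3p ran nearly the same (r = 0.997), and the 2 arms of miR-7a ran closely (r = 0.946). Relative to the saline mean on the log2 scale, the members' median was 0.38, -0.27 and -0.90 in ADSC-Exos 1, 2 and 3, against -0.17, -0.09 and 0.27 in saline 1, 2 and 3. The median of all tested miRNAs was 0.04, -0.06 and -0.19 in ADSC-Exos 1, 2 and 3, against 0.02, -0.06 and 0.02 in saline 1, 2 and 3. Among single members, miR-128b-3p spread most within ADSC-Exos, with an SD of 0.938 log2 units, against 0.447 in saline. In ADSC-Exos miR-7a-3p spread least, with 0.340, and in saline miR-218-5p, with 0.194, beside medians of 0.456 and 0.353 over all tested miRNAs. Without ADSC-Exos 3 the members' median log2 fold change was 0.09, with 4 higher and 2 lower, and without ADSC-Exos 1 it was -0.71, with all 6 lower and none called in limma.

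**Figure D4:**
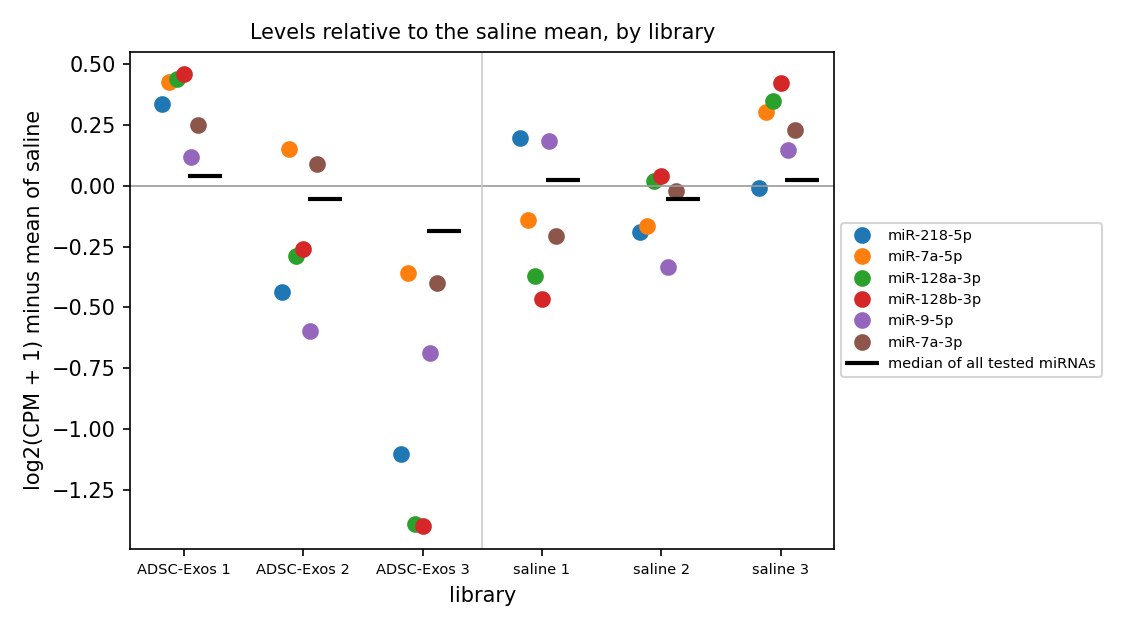
Level of each tested neuronal miRNA relative to its saline mean, as a difference of log2(CPM + 1), by library, with ADSC-Exos left of saline. Black bars are the median of all 224 tested miRNAs; the 6 members lie above that bar in ADSC-Exos 1 and below it in ADSC-Exos 3.

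Other measures also differed between these libraries, some in the same order as the members and some not. The miRNA reads per library were 2260645, 3704797 and 5102405 in ADSC-Exos 1, 2 and 3, against 3246695, 2873899 and 3911924 in saline 1, 2 and 3. In ADSC-Exos the members' median fell as depth rose, whereas in saline the deepest library, saline 3, had the highest members' median. Epithelial miRNAs, 6 rows of miR-141, miR-200c and miR-205, had a mean log2 level relative to saline of 0.70, 0.15 and -0.55 in ADSC-Exos 1, 2 and 3, and of 0.20, -0.06 and -0.15 in saline 1, 2 and 3. Their summed level was 7912.9 to 12297.1 CPM in ADSC-Exos and 8140.1 to 11335.4 CPM in saline. Erythroid miRNAs, 3 rows of miR-144 and miR-451, stood at -0.41, -1.97 and -2.32 in ADSC-Exos and at -0.39, -0.21 and 0.60 in saline, and summed to 76.7 to 333.5 CPM in ADSC-Exos and 318.8 to 638.0 CPM in saline. Leukocyte miRNAs, 9 rows of which 7 were tested, stood at 0.12, -0.40 and -0.56 in ADSC-Exos and at -0.33, 0.08 and 0.25 in saline, and summed to 6663.8 to 10114.8 CPM in ADSC-Exos and 7961.3 to 10091.4 CPM in saline. Erythroid and leukocyte miRNAs followed the order of the members' median in both groups. Epithelial miRNAs followed it in ADSC-Exos but ran in the reverse order in saline. The lists below did not follow it in ADSC-Exos. Cartilage miRNAs, 4 rows, stood at -1.07, 0.89 and 0.82 in ADSC-Exos and at -0.50, 0.16 and 0.34 in saline. Smooth muscle miRNAs, 4 rows of miR-143 and miR-145, stood at -1.07, 0.15 and 0.10 in ADSC-Exos and at 0.10, -0.29 and 0.19 in saline, and summed to 14505 to 67009 CPM in ADSC-Exos and 38229 to 70397 CPM in saline. Fibroblast miRNAs, 4 rows, stood at -0.31, -0.31 and 0.61 in ADSC-Exos and at 0.06, -0.19 and 0.13 in saline. Skeletal muscle miRNAs, 5 rows of which 3 were tested, stood at -2.59, -1.19 and -1.49 in ADSC-Exos and at 0.72, 0.29 and -1.004 in saline, and summed to 609.1 to 2375.0 CPM in ADSC-Exos and 1452.7 to 2133.5 CPM in saline. No row of these 7 lists was at 0 in every library, but not every name sought had a row. Of the names sought, 3 of 7 were matched for epithelium and 2 of 3 for fibroblasts, and all were matched for the other lists. The part of depth or of these cell types in the levels of the neuronal miRNAs was not tested.

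Ratios within a library were taken of CPM + 1. For abundant miRNAs they depend little on the library's scaling, and they set the members apart from each other. The ratio of miR-218-5p to miR-7a-5p was 1.13, 0.802 and 0.717 in ADSC-Exos 1, 2 and 3, against 1.52, 1.18 and 0.967 in saline 1, 2 and 3. The groups overlapped, with miR-218-5p the more abundant in ADSC-Exos 1, saline 1 and saline 2. The ratio of miR-7a-5p to miR-9-5p was 3.89, 5.29 and 3.95 in ADSC-Exos, against 2.51, 3.53 and 3.51 in saline, and here all ADSC-Exos libraries were above all saline ones. The mean log2 ratio was 2.12 ± 0.249 in ADSC-Exos and 1.65 ± 0.282 in saline (SD, n = 3 each). The exact permutation p was 0.1, the smallest that 3 against 3 can give, and 0.4 when adjusted over the 6 pairs of miR-218-5p, miR-7a-5p, miR-128a-3p and miR-9-5p. It was the only pair of the 6 without overlap, and the groups did not overlap for 6.68% of all 24976 pairs of tested miRNAs. The ratio of miR-218-5p to miR-9-5p, which share the lower mean in ADSC-Exos, was 4.40, 4.24 and 2.84 in ADSC-Exos and 3.82, 4.18 and 3.40 in saline. These ratios were chosen after values had been seen.

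The hairpins of miR-7a, miR-9 and miR-128a each had 1 dominant arm in all 6 libraries. The dominant arm was 5p for miR-7a, with 95.4% to 96.2% of the reads of both arms per library, and for miR-9, with 94.0% to 96.5%. It was 3p for miR-128a, with 97.5% to 99.4%. The miR-128a-3p row may hold reads shared with miR-128b-3p, so this share and the ratio of these arms are uncertain. miR-218-5p had 15399 reads over the 6 libraries, against 10 reads of miR-218-2-3p, the single miR-218 3p row used here. The ratio of miR-7a-5p to miR-7a-3p, each with a pseudocount of 1 CPM, was 24.9, 22.98 and 22.8 in ADSC-Exos 1, 2 and 3, against 23.1, 19.997 and 23.3 in saline 1, 2 and 3. The arms of miR-7a thus kept a similar proportion while their levels varied 1.60-fold for the 3p arm and 1.72-fold for the 5p arm. The ratio of miR-9-5p to miR-9-3p was 24.97, 14.3 and 14.9 in ADSC-Exos and 25.1, 21.5 and 18.1 in saline. The ratio of miR-128a-3p to miR-128a-5p varied most of the 3, with 10 to 21 reads of the 5p arm per library. It was 57.9, 92.5 and 31.3 in ADSC-Exos and 54.8, 55.8 and 123.8 in saline. With a pseudocount of 0.1 CPM in place of 1 CPM it ran from 37.7 to 156.3 over the libraries. The groups overlapped in all 3 arm ratios, and the exact permutation p, adjusted over the 3, was 0.6 for each.

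**Figure D5:**
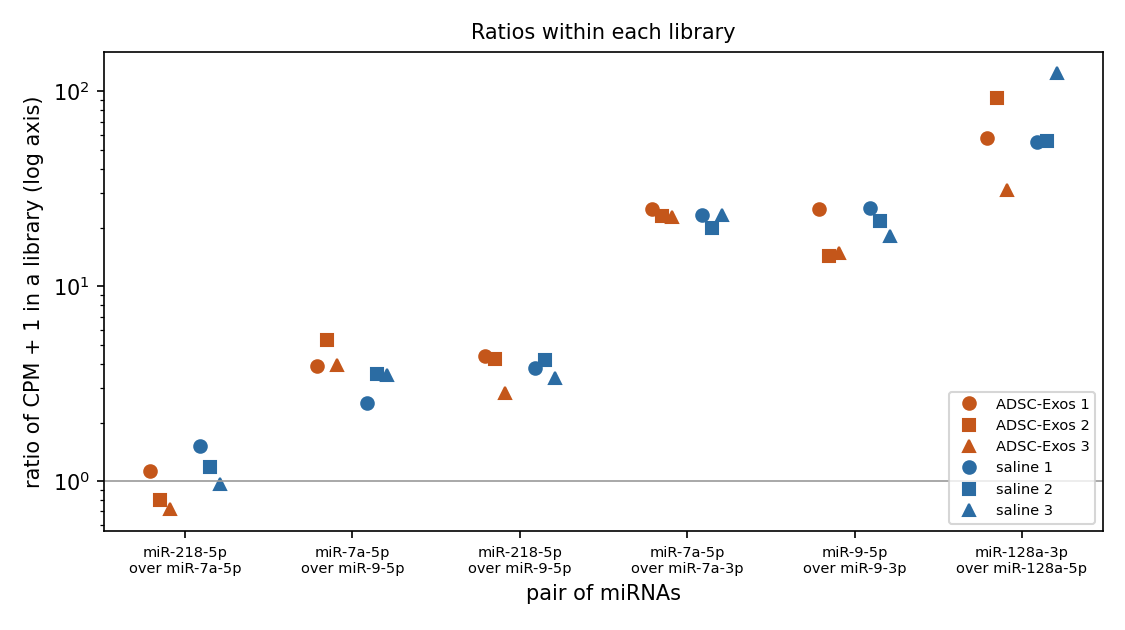
Ratios of CPM + 1 between 2 miRNAs of the same library, on a log axis, with 1 point per library and ADSC-Exos left of saline. Of the 6 ratios drawn, miR-7a-5p over miR-9-5p is without overlap between the groups, and miR-7a-5p over miR-7a-3p varies least.

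The miRNAs whose levels ran most alike over the 6 libraries were sought among the 218 other tested miRNAs by Pearson correlation of log2(CPM + 1). For miR-218-5p they were miR-200c-5p (r = 0.968), miR-181c-5p (r = 0.96) and miR-744-5p (r = 0.949). For miR-7a-5p they were miR-545-3p (r = 0.964), miR-505-5p (r = 0.96) and miR-28-3p (r = 0.958). All 6 were at their lowest in ADSC-Exos 3, where miR-218-5p and miR-7a-5p were lowest too, so the choice by correlation favoured this. These correlations are descriptions over 6 points of the best of many candidates, and the points share libraries, their depth and a common scaling. Among the members, miR-218-5p ran closest to miR-9-5p (r = 0.896) and miR-7a-5p to miR-7a-3p (r = 0.946), whereas miR-7a-3p and miR-9-5p were least alike (r = 0.477).

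Other nervous-system miRNAs were lower in level than miR-218, miR-7a, miR-128 and miR-9. A list of 12 further names matched 14 rows of 8 names, whose summed level was 44.8 to 61.1 CPM in ADSC-Exos and 45.0 to 79.4 CPM in saline. Of these, 2 were tested and 12 were under the level filter, and neither passed in limma. miR-375-3p, an endocrine miRNA, had 10.2, 8.6 and 11.4 CPM in ADSC-Exos 1, 2 and 3, against 23.7, 13.9 and 5.9 CPM in saline 1, 2 and 3. Its log2 fold change was -0.31 ± 0.52 (SE, adjusted p = 0.996 in limma), with both extremes in saline. miR-135b-5p had a log2 fold change of -0.32 ± 0.49 (SE, adjusted p = 0.996 in limma). miR-137-3p, which acts in neuronal maturation, had 4.9, 5.7 and 4.3 CPM in ADSC-Exos, against 11.1, 5.2 and 5.9 CPM in saline. Both arms of miR-219a, the single glial miRNA of the 3 listed names that was matched, summed to 2.4 to 5.2 CPM in ADSC-Exos and 2.1 to 5.2 CPM in saline. In neither set of nervous-system miRNAs did a tested member thus pass the adjusted threshold in limma. The rows under the level filter were not part of that fit. For the tested members, changes within the width of the 95% intervals could not be resolved, so equal levels in the groups were not shown.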

How the data were processed

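Small RNA libraries of 3 ADSC-Exos and 3 saline scars were sequenced with adaptors on both ends of the small RNAs, per the labels' protocols. Of tools, the submitters' processing notes list DESeq2 1.30.1, HTSeq 2.0.3, STAR 2.7.6a, Trimmomatic 0.40 and FastQC 1.0.0 without saying what each did. The sources used here do not give the genome build, the miRNA annotation, the use of strand or the treatment of reads shared by copies. The authors deposited CPM values for 467 mature miRNAs, so each level is relative to all others of its library, and an abundant miRNA that changes shifts the others. Sequences of the miRNAs were not used here.

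Library totals were sought as the number of reads that makes the values whole reads to within 0.05 CPM, with the lowest value as 1 read. This held for 2378 of 2382 values above 0. In ADSC-Exos 3 a total of 4897595 came close, with 390 of 406 values whole. Because the values are CPM and a stricter test for recovered counts was not met, the count test first named gave way to limma 3.58.1 (R 4.3.3) with a mean-variance trend on log2(CPM + 1). It covered the 224 miRNAs whose mean reached 10 CPM. Group was the only term, and two-sided p-values received Benjamini-Hochberg adjustment over all tested. Fold changes on this scale understate those of low miRNAs. Single values were compared by exact permutation in scipy 1.17.1. The fit was tested on 20 simulated sets in which all miRNAs had the median spread of those tested. It called 37.8% of 2-fold and 99.2% of 4-fold changes, and 4.55% of its calls were false. miR-128a-3p, miR-128b-3p and miR-218-5p spread more than the median in ADSC-Exos, so these shares may not hold for them.

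The members, the lists and the naming rule (every member, and the 3 miRNAs most alike to miR-218-5p and to miR-7a-5p) were chosen with earlier results of these data known. As alternatives, size factors by median of ratios, a pseudocount of 0.1 or 10, no filter, a filter at a mean of 100 CPM, a replicate block, limma-voom on the recovered reads and leaving out each library were run. Quantile scaling and the summed miR-128 rows were added after seeing the data.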

Additional observations from a re-analysis of the deposited data

How the results depend on the processing

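The count of neuronal miRNAs called in limma was 0 under every alternative run, 0 to 0 with 1 library left out. The count over all miRNAs was 0 under each other alternative and 0 to 4 with a library left out, being 4 without ADSC-Exos 1 and 1 without saline 3, none of them a neuronal miRNA. The median log2 fold change of the tested members was -0.24 to -0.41 with another scaling, pseudocount, test or level of at least 100 CPM or with the miR-128 rows summed, -0.23 over all 17 rows without a filter, and -0.71 to 0.088 with a library left out. That upper value, without ADSC-Exos 3, differs in sign, and the cause was not tested. Single members that changed sign were miR-128a-3p (0.077) and miR-128b-3p (0.099) without ADSC-Exos 3, miR-7a-3p under median-of-ratios scaling (0.018), quantile scaling (0.024), without ADSC-Exos 3 (0.17) and without saline 3 (0.095), and miR-7a-5p without ADSC-Exos 1 (-0.10) and without saline 2 (-0.0090). Over the libraries left out, miR-128a-3p ran from -0.84 to 0.077, miR-128b-3p from -0.83 to 0.099, miR-218-5p from -0.77 to -0.05, miR-7a-3p from -0.15 to 0.17, miR-7a-5p from -0.10 to 0.29 and miR-9-5p from -0.64 to -0.24. The arm ratios kept their direction with a pseudocount of 0.1.

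Labels number the replicates 1 to 3 in both groups. Deviations of same-numbered libraries from their group means correlated at -0.114, -0.0176 and -0.127, and no library correlated best with its own number, so the numbers were not taken as pairs. With the replicate number as a block, 0 miRNAs were called and the members' median was -0.39. Levels under 3 reads, 0.588 to 1.33 CPM, are limited by depth.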
